A study of Mus musculus with 6 samples.

Results

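Wdfy1, Tagap1 and Gm7993 are 3 mouse genes on chromosomes 1, 17 and 5 whose RNA was higher in every pool of heart cells from mice with Egfr deleted in myeloid cells than in every pool of control cells. They were chosen by their read counts in this KO against WT contrast, 3 of 55487 gene identifiers counted and of 15707 tested, so their separation is described and not tested. The KO pools (EGFR -/-, myeloid-specific, labelled Egfr mKO) and the WT pools (Egfr f/f, the floxed allele without deletion) were all on the C57BL/6 strain, with 3 pools in each group. Each pool joined 5 or 6 hearts, from which Cd11b+ non-myocyte cells were enriched with magnetic beads, and RNA was sequenced in bulk. The promoter that drives deletion, the age and sex of the animals and whether KO and WT animals were littermates are not stated in the labels. All KO animals share 1 genotype and all WT animals the other. A difference in inherited background, a response to the loss of Egfr and other differences between the groups therefore cannot be told apart by this design. Among those other differences is the level of Lyz2 RNA, which was low in every KO pool.

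Wdfy1 encodes an adaptor with WD repeats and a FYVE domain, a fold that binds the lipid phosphatidylinositol 3-phosphate on early endosomes. It is known to help the Toll-like receptors TLR3 and TLR4 recruit TRIF, the adaptor that leads to type I interferon. Tagap1 belongs with Tagap, a gene first described in activated T cells. Gm7993 is annotated as a processed pseudogene, a copy of a spliced messenger RNA inserted back into the genome. Its sequence resembles Odc1, which encodes ornithine decarboxylase, the rate-limiting enzyme of polyamine synthesis.

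The genotype labels were checked on the targeted gene. Egfr was at 18.5, 15.9 and 17.4 CPM (reads in genes scaled to a common library size by TMM) in the KO pools, against 54.7, 43.0 and 44.7 CPM in the WT pools. The log2 fold change was -1.46 ± 0.13 (SE), at an adjusted p of 0.0449 in edgeR, and the adjusted p ranged from 6.58e-14 to 0.353 over the other settings. Lyz2, the lysozyme of myeloid cells, was at 17.4 to 19.3 CPM in KO pools, against 4074 to 6700 CPM in WT pools. Reads in genes numbered 17780707 to 27485129 per library. Y-linked markers were at 234 summed CPM in KO replicate 1 and at 240 in WT replicate 1, and at 0.0931 to 0.938 in the other 4 pools. Xist, the RNA of X inactivation, was at 0.153 and 0.269 CPM in KO and WT replicate 1, and at 344 to 602 CPM in the other 4 pools. By these markers replicate 1 of each group was male and the other 4 pools were female.

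Wdfy1 lies on chromosome 1 at chr1:79702262-79776143, minus strand, of GRCm38. It was counted 683, 797 and 800 times in KO replicates 1 to 3, or 26.1, 31.3 and 31.1 CPM. In WT replicates 1 to 3 it was counted 419, 267 and 317 times, or 16.1, 13.9 and 14.8 CPM. The lowest KO pool was 1.62-fold above the highest WT pool, and the gap between the groups was wider than the range within either. Means were 29.5 ± 2.94 CPM in KO pools and 14.9 ± 1.11 CPM in WT pools (SD, n = 3 each), a 1.97-fold ratio of means and a log2 fold change of 0.98 (SE 0.13). Exact Poisson intervals of 95%, which cover counting error only, ran from 24.2 to 28.1 CPM in KO replicate 1, the lowest KO pool, and from 14.6 to 17.7 CPM in WT replicate 1, the highest WT pool.

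Tagap1 lies on chromosome 17 at chr17:6955011-6961156, minus strand, with 2312 exonic bases. It was counted 523, 490 and 521 times in KO replicates 1 to 3, or 20, 19.2 and 20.2 CPM. In WT replicates 1 to 3 it was counted 164, 169 and 165 times, or 6.31, 8.81 and 7.68 CPM. The KO pools lay close together, with a spread of reads 0.334 times that of counting error alone, while the spread of the WT pools was 4.71 times counting error. Means were 19.8 ± 0.508 CPM in KO pools and 7.60 ± 1.25 CPM in WT pools (SD, n = 3 each), a 2.61-fold ratio and a log2 fold change of 1.38 (SE 0.16). The lowest KO pool was 2.18-fold above the highest WT pool.

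Gm7993 lies on chromosome 5 at chr5:95974240-95975623, plus strand, with 1384 bases and no intron. It was counted 215, 330 and 473 times in KO replicates 1 to 3, or 8.21, 13.0 and 18.4 CPM. In WT replicates 1 to 3 it was counted 24, 3 and 12 times, or 0.923, 0.156 and 0.559 CPM. The WT levels were low but not at 0, and the 3 reads of WT replicate 2 have a 95% Poisson interval of 0.619 to 8.77 reads. Means were 13.2 ± 5.08 CPM in KO pools and 0.546 ± 0.384 CPM in WT pools (SD, n = 3 each), a 24.1-fold ratio and a log2 fold change of 4.53 (SE 0.53). Unlike Tagap1, the KO pools differed among themselves, with a spread of reads 50.9 times counting error. The log2 fold change was 5.16 without WT replicate 1 and 4.12 without WT replicate 2, and the WT pools held 39 reads in all. WT pools met the expression filter in only 2 libraries, so Gm7993 was tested only through the KO pools where it is high.

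**Figure D1:**
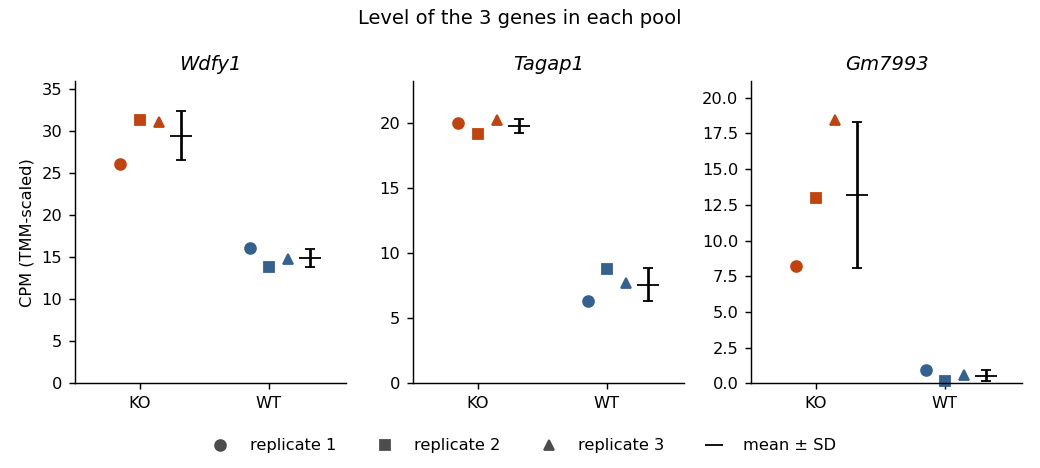
Level of Wdfy1, Tagap1 and Gm7993 in each pool in TMM-scaled CPM on linear axes from 0, KO left and WT right, with marker shape giving the replicate number and the bar the mean ± SD of 3 pools. No KO pool overlaps a WT pool; Tagap1 is tight in KO (19.2 to 20.2 CPM), whereas Gm7993 spreads from 8.21 to 18.4 CPM.

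Separation of this kind was not rare in the series. Every KO pool lay above every WT pool for 1507 genes (9.59% of 15707), and for 1592 genes (10.1%) every KO pool lay below. Since the 3 genes were chosen for it, nothing is read from their share. As a description of size, on a log2(CPM + 0.1) scale the distance from the lowest KO to the highest WT pool was 3.02 for Gm7993, the widest of all 15707 genes in that direction. It was 1.12 for Tagap1, at rank 23, and 0.69 for Wdfy1, at rank 69. Within the groups the log2 range reached 0.26 for Wdfy1, 0.48 for Tagap1 and 2.00 for Gm7993.

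The levels of the 3 genes did not order the pools alike inside a group. Gm7993 was lowest in KO replicate 1 and highest in KO replicate 3, Wdfy1 was also lowest in KO replicate 1, and Tagap1 was lowest in KO replicate 2. Among WT pools, replicate 1 was the highest for Wdfy1 and Gm7993 and the lowest for Tagap1. Over the 6 pools, which share libraries and depth, Pearson's r on the log2 scale was 0.933 between Wdfy1 and Tagap1, 0.987 between Wdfy1 and Gm7993 and 0.893 between Tagap1 and Gm7993. Each r includes the step between the groups that the genes were chosen for, so a high value is built in.

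Cell markers moved with the genotype in the same pools, and in bulk RNA more cells of a type and more RNA per cell cannot be told apart. The 9 resident macrophage markers, among them Adgre1, Csf1r and Timd4, summed to 9585 to 9926 CPM in KO pools and 5364 to 9539 CPM in WT pools, and all 9 had higher means in KO. The 5 B cell markers summed to 383 to 653 CPM in KO pools and 262 to 367 CPM in WT pools, and 5 dendritic cell markers to 257 to 295 CPM in KO pools and 146 to 221 CPM in WT pools. Of these, 0 B cell markers and 1 dendritic cell marker had lower means in KO. The 8 endothelial markers, all with lower means in KO, summed to 949 to 1220 CPM in KO pools and 1729 to 2890 CPM in WT pools. The 6 mural markers summed to 592 to 870 CPM in KO pools and 996 to 1673 CPM in WT pools. The sums of the 6 fibroblast markers overlapped, at 1319 to 1979 CPM in KO pools and 1757 to 5623 CPM in WT pools. Those of the 6 cardiomyocyte markers overlapped too, at 183 to 320 CPM in KO pools and 249 to 414 CPM in WT pools. All 6 markers of each of the mural, fibroblast and cardiomyocyte lists had lower means in KO. None of the markers in these lists was at 0 in all pools.

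Over genes with enough reads, chi-square per degree of freedom between the counts of WT replicate 1 and each KO pool was 41.3 to 58.5. Against WT replicates 2 and 3 it was 76.9 and 84.1, so WT replicate 1 was nearer to the KO pools. WT replicates 2 and 3 stood at 45.8 from each other and at 87.5 to 122 from the KO pools. By marker lists, WT replicate 1 resembled the KO pools in some and not in others. Its macrophage markers summed to 9539 CPM, beside 9585 CPM in KO replicate 2, and its fibroblast markers, at 1757 CPM, lay inside the KO range. Its endothelial markers summed to 1729 CPM and its mural markers to 996 CPM, against 999 and 592 CPM in KO replicate 2. Erythroid markers summed to 36.2 to 84.7 CPM in KO pools, against 1876, 75.5 and 142 CPM in WT replicates 1 to 3. Neutrophil markers summed to 2435, 594 and 622 CPM in KO replicates 1 to 3, against 1937, 948 and 495 CPM in WT replicates 1 to 3. T cell markers summed to 142, 54.1 and 226 CPM in KO replicates 1 to 3, against 27.3, 577 and 29.5 CPM in WT replicates 1 to 3. The 3 genes were chosen because every KO pool lies above every WT pool, so their order between these pools adds nothing to that choice. The part of these cell types in the levels of Wdfy1, Tagap1 and Gm7993 was not tested.

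**Figure D2:**
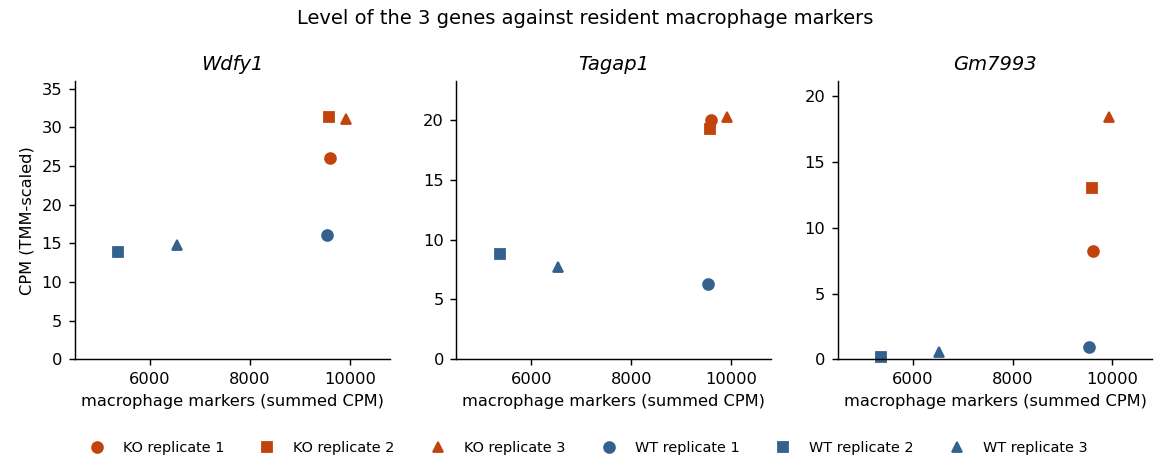
Level of each of the 3 genes (TMM-scaled CPM, linear axis from 0) against the summed CPM of 9 resident macrophage markers, with KO pools in orange, WT pools in blue and marker shape giving the replicate number. The marker sum is 9585 to 9926 CPM in KO pools and 5364 to 9539 CPM in WT pools, and the separation on the vertical axis is the one the genes were chosen for.

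Reads that fit several places were left unassigned, so counts of near-identical copies are less certain. Of the windows of 100 bases in the longest Wdfy1 transcript, of 4551 bases, 0% occurred in a transcript of another gene. For Tagap1 that share was 58.0% and for Gm7993 19.8%. With windows of 50 bases the shares were 0.378%, 76.2% and 49.6% in the same gene order, and with 150 bases 0%, 41.8% and 3.81%. The labels state no read length, and only annotated transcripts were searched.

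The first 183 bases of Tagap1 occur unchanged in transcripts of Fgfr1op, also named Cep43, which encodes a centrosomal protein. From there to its end it follows Tagap, with 14 substitutions and 1 gap base over 2132 aligned columns, an identity of 99.3%, and a longest unbroken match of 386 bases. The stretch of 120 bases with the most differences, searched without gaps and within the coding part of both genes, shows how alike they are. Capitals mark Tagap1 bases that differ from Tagap, the upper line being chr17:6956829-6956948, minus strand, and the lower chr17:7932959-7933078, plus strand, both GRCm38.
Tagap1: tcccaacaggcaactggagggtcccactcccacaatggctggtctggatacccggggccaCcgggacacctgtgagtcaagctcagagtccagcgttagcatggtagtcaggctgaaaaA
Tagap: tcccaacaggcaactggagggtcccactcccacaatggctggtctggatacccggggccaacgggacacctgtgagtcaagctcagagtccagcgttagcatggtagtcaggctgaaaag

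The region before the start of Tagap1 is not that of Tagap but that of Fgfr1op. In the RefSeq promoter table of GRCm38.p6, which held 1 of the 3 genes, 248 bases before Tagap1 occur unbroken in the Cep43 promoter. The 250 bases before the start of each gene are shown, with capitals for the bases of Tagap1 inside that run. Sequence beyond the end of the Cep43 promoter was not compared, so small letters in Tagap1 need not differ from it. They lie at chr17:6961157-6961406, minus strand, for Tagap1 and at chr17:7925750-7925999, plus strand, for Tagap. 
Tagap1 promoter: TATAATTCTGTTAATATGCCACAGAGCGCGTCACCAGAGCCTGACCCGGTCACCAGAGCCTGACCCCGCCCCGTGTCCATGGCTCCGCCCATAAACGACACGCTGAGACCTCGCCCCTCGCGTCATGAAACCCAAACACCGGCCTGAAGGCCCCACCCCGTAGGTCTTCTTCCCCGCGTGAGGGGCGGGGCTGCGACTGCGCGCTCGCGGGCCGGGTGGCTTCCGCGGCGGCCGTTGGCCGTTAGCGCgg
Tagap promoter: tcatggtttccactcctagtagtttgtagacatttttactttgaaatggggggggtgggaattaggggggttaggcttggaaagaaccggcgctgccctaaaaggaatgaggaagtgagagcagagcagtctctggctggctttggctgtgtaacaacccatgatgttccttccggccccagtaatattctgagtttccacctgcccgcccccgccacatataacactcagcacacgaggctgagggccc

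On both strands, the GC box letters GGGCGG occurred 3 times before Tagap1 and 1 time before Tagap, and 32.9% of 27025 promoters in the table hold them in the same span. The letters TGACG, the core of a cyclic AMP response element, occurred 2 times before Tagap1 and 0 times before Tagap, against 17.9% of promoters. CCAAT and TATAAA occurred in neither window, against 34.5% and 13.0% of promoters.

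Neither gene that Tagap1 resembles showed its step. Tagap was at 111, 96.1 and 57.2 CPM in KO replicates 1 to 3, against 107, 76.4 and 80.3 CPM in WT replicates 1 to 3. The groups overlapped, with a log2 fold change of 0.00 ± 0.25 (SE), at an adjusted p of 0.996 in edgeR. Fgfr1op was at 18.9, 17.6 and 14.2 CPM in KO pools, against 15, 20 and 14.9 CPM in WT pools, with a log2 fold change of 0.03 ± 0.18 (SE), at an adjusted p of 0.960 in edgeR. Tagap1 took 15.2%, 16.7% and 26.1% of the reads assigned to either gene of the Tagap pair in KO replicates 1 to 3, against 5.55%, 10.3% and 8.73% in WT replicates 1 to 3. Reads that fit both genes are in neither count, so the Tagap1 values rest on the bases that tell the genes apart.

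Gm7993 is a copy of the coding sequence of Odc1. It has 31 substitutions and 35 gap bases against the 1383 coding bases of Odc1, an identity of 97.7% without gaps, and a run of 25 adenines where the longest such run of Odc1 has 7. In all, 12 genes matched Gm7993 over at least 500 bases at 90% identity or more, Odc1 itself included and most of the others processed pseudogenes, and Wdfy1 had 0 such copies. The 120 bases with the most differences from Odc1, among stretches without gaps to Odc1 or Gm9260, are shown. Beside them stand those of Gm9260, another copy on chromosome 12. Capitals mark bases that differ from Odc1. Gm7993 is read at chr5:95975117-95975236, plus strand, Gm9260 at chr12:115992374-115992493, minus strand, and the Odc1 bases are spliced from chr12:17549550-17549750, plus strand.
Gm7993: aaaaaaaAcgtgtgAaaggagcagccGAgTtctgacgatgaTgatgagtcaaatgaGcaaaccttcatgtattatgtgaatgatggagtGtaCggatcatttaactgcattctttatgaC
Odc1: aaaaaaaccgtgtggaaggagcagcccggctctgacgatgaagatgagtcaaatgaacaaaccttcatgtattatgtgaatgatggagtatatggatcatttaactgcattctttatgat
Gm9260: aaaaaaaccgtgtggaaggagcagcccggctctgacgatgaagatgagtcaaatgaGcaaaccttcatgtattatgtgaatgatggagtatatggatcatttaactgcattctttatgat

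Odc1 itself stood lower in the KO pools, the opposite of Gm7993. It was at 221, 225 and 226 CPM in KO replicates 1 to 3, against 327, 260 and 338 CPM in WT replicates 1 to 3. The log2 fold change was -0.46 (SE 0.13) and did not pass in edgeR (adjusted p = 0.223). DESeq2 gave an adjusted p of 0.0464, and over all other settings it ranged from 0.0464 to 0.576. Gm7993 reads came to 3.72%, 5.75% and 8.12% of the Odc1 reads in KO replicates 1 to 3, against 0.283%, 0.0602% and 0.165% in WT replicates 1 to 3. That the groups do not overlap in this percentage follows from the choice of Gm7993 and from the lower Odc1 in KO pools.

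Of the 12 genes alike in sequence, 3 had every KO pool above every WT pool, 1, Odc1, had every KO pool below, and 8 overlapped. Over all 15707 genes tested the shares were 9.59% above and 10.1% below. Most of the 12 had few reads, so their count is a description only. AW146154, a processed transcript, was at 3.82, 2.79 and 2.87 CPM in KO replicates 1 to 3, against 2.35, 2.24 and 2.42 CPM in WT replicates 1 to 3. Gm9115 had at most 7 reads in a pool, and the 8 that overlapped had at most 15. Gm9260 was counted 23, 33 and 79 times in KO replicates 1 to 3, or 0.879, 1.30 and 3.07 CPM. In WT replicates 1 to 3 it was counted 6, 5 and 0 times, or 0.231, 0.261 and 0 CPM, and KO replicate 3 was the highest pool for both copies. Its log2 fold change was 3.37 ± 0.84 (SE), at an adjusted p of 0.192 in edgeR, and the adjusted p ranged from 0.00303 with DESeq2 to 0.571 over the other settings. These copies were named after their values were seen.

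**Figure D3:**
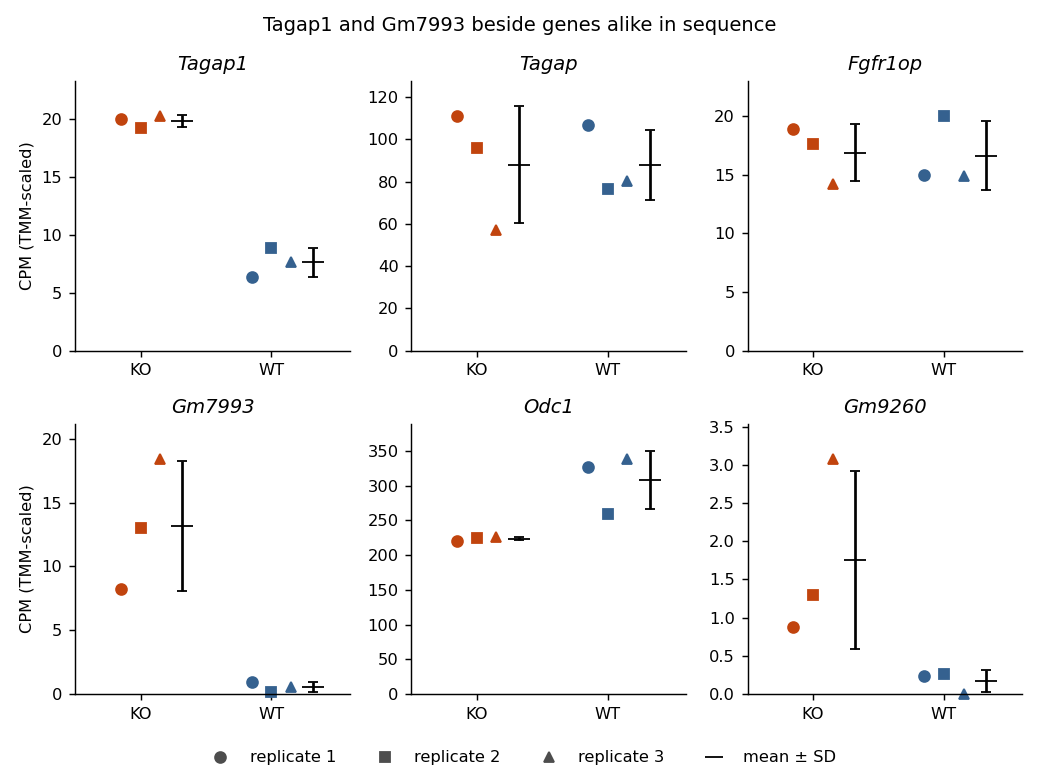
Levels in TMM-scaled CPM (linear axes from 0, a scale for each panel) of Tagap1 with Tagap and Fgfr1op, and of Gm7993 with Odc1 and Gm9260, KO left and WT right, with the mean ± SD of 3 pools. Tagap and Fgfr1op overlap between groups, Odc1 is lower in KO (221 to 226 CPM, against 260 to 338 CPM in WT), and Gm9260 is higher in KO.

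The genome around each gene was read to see whether its neighbours took the same step. Within 1 Mb, 8 genes around Wdfy1, 22 around Tagap1 and 7 around Gm7993 were tested. In edgeR 0 of these neighbours passed, where 0% of all genes passed as higher and 0.0127% as lower. At an unadjusted p under 0.05 there were 2, 8 and 1 neighbours around Wdfy1, Tagap1 and Gm7993, where the share over all genes was 15.3%. Median log2 fold changes were 0.04, -0.02 and 0.13 in that order, against 0.01 over all genes. DESeq2 called 0 neighbours of Wdfy1, 2 higher and 3 lower of Tagap1 and 1 higher of Gm7993, where it called 1.13% of genes higher and 4.39% lower. Without WT replicate 1, edgeR called 1 neighbour of Wdfy1 lower, 3 of Tagap1 higher and 4 lower, and 1 of Gm7993 higher, where it called 2.33% of genes higher and 5.97% lower. This setting, here and below, leaves no male pool among the WT pools, while the male KO replicate 1 stays in. With all libraries and no expression filter it called 1 lower around Wdfy1, 2 higher and 2 lower around Tagap1 and 1 higher around Gm7993, against 0.479% higher and 2.22% lower over all genes.

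Mrpl44, a mitochondrial ribosomal protein gene whose start overlaps that of Wdfy1, was at 7.60, 8.88 and 5.90 CPM in KO pools, against 6.66, 7.25 and 6.15 CPM in WT pools. Its log2 fold change was 0.16 ± 0.20 (SE), at an adjusted p of 0.760 in edgeR. On the other side, 30.3 kb away, Ap1s3, an adaptor subunit for vesicle coats, had 6.84, 6.32 and 5.98 CPM in KO pools and 5.27, 5.42 and 4.10 CPM in WT pools. Its groups did not overlap, but at 0.37 ± 0.20 (SE) on the log2 scale it did not pass (adjusted p = 0.413 in edgeR). Serpine2, a secreted protease inhibitor, had the smallest p of the neighbours, at a log2 fold change of -0.76 (adjusted p = 0.232 in edgeR), and its groups overlapped. Without WT replicate 1 it passed as lower in edgeR (adjusted p = 0.034), and over all other settings the adjusted p was 0.034 to 0.594.

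Around Tagap1 3 neighbours were higher in KO by more than 1 on the log2 scale, and none passed in edgeR with all libraries. Of these, 2 lie in a block of duplicated genes 488 to 519 kb away. Tmem181b-ps, a transcribed pseudogene of a transmembrane protein family, was at 11.5, 12.7 and 15.4 CPM in KO replicates 1 to 3, against 4.58, 5.27 and 6.10 CPM in WT replicates 1 to 3. The log2 fold change was 1.32 ± 0.19 (SE), at an adjusted p of 0.147 in edgeR, with adjusted p-values of 5.28e-06 with DESeq2 to 0.493 over the other settings. Dynlt1b, a dynein light chain gene beside it, was at 1.38, 1.89 and 2.72 CPM in KO pools, against 0.500, 0.156 and 0.512 CPM in WT pools. Its log2 fold change was 2.32 ± 0.50 (SE), at an adjusted p of 0.180 in edgeR, with 0.00363 with DESeq2 to 0.571 over the other settings. Neither gene overlapped between the groups. Without WT replicate 1 both passed in edgeR, at an adjusted p of 0.0191 for Tmem181b-ps and 0.0468 for Dynlt1b. The third, 4933426B08Rik, a long noncoding RNA 136 kb away, was counted 24, 20 and 17 times in KO replicates 1 to 3, against 13, 2 and 1 times in WT replicates 1 to 3. Its log2 fold change was 1.76 ± 0.71 (SE), with an adjusted p of 0.300 in edgeR, 0.0327 without WT replicate 1 and 0.0327 to 0.641 over all other settings.

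The close copies of Tmem181b-ps and Dynlt1b, 638 to 647 kb from Tagap1, differed less. Tmem181a was at 12.0 ± 1.76 CPM in KO pools and 12.6 ± 1.18 CPM in WT pools (SD, n = 3 each), with a log2 fold change of -0.07 (adjusted p = 0.875 in edgeR). Dynlt1a was at 4.10 ± 0.464 CPM in KO pools and 3.02 ± 0.122 CPM in WT pools, with 0.44 (adjusted p = 0.370 in edgeR). Every KO pool also lay above every WT pool for Dynlt1a, whereas the groups overlapped for Tmem181a. Dynlt1b matched Dynlt1a with 1 substitution over 401 bases and Tmem181b-ps matched Tmem181a without a substitution over 455 bases, so reads between these copies are uncertain as well. Of genes nearer to Tagap1, Rsph3b, 6.33 kb away, had a log2 fold change of -0.23 (adjusted p = 0.664 in edgeR), Rnaset2b, 9.48 kb away, had -0.65 (adjusted p = 0.790), and Rps6ka2, a ribosomal S6 kinase gene 209 kb away, had -0.76 (adjusted p = 0.180). Rps6ka2 passed as lower in DESeq2 (adjusted p = 0.00852) and in edgeR without WT replicate 1 (adjusted p = 0.0356), with 0.00852 to 0.571 over all other settings. Fndc1, 777 kb away, had the lowest fold change, at 34.6, 32.1 and 22.7 CPM in KO replicates 1 to 3, against 36.6, 90.1 and 144 CPM in WT replicates 1 to 3. Its log2 fold change was -1.60 ± 0.44 (SE), with an adjusted p of 0.207 in edgeR, 0.0136 without WT replicate 1 and 0.00308 with DESeq2, and 0.00308 to 0.571 over all other settings. Of the 22 neighbours, 5 had every KO pool above and 4 every KO pool below the WT pools, where the shares over all genes were 9.59% and 10.1%.

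Next to Gm7993, 13.2 kb upstream on the same strand, lies Cxcl13, the chemokine that attracts B cells. It was at 50.1, 56.2 and 68.7 CPM in KO replicates 1 to 3, against 40.8, 14.9 and 14.0 CPM in WT replicates 1 to 3. The KO pools ranked for Cxcl13 as they did for Gm7993, and WT replicate 1 was the highest WT pool for both. The log2 fold change was 1.32 ± 0.40 (SE), at an adjusted p of 0.227 in edgeR, and the adjusted p was 0.0131 with DESeq2 and 0.0112 to 0.571 over all other settings, with 0.0119 in edgeR without WT replicate 1. On the other side Cnot6l, a subunit of the deadenylase that shortens mRNA tails, was at 71.6 ± 8.09 CPM in KO pools and 65.2 ± 6.43 CPM in WT pools, with 0.13 (adjusted p = 0.662 in edgeR). Of 41 annotated neighbours of Gm7993, 24 had 0 reads in all libraries.

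**Figure D4:**
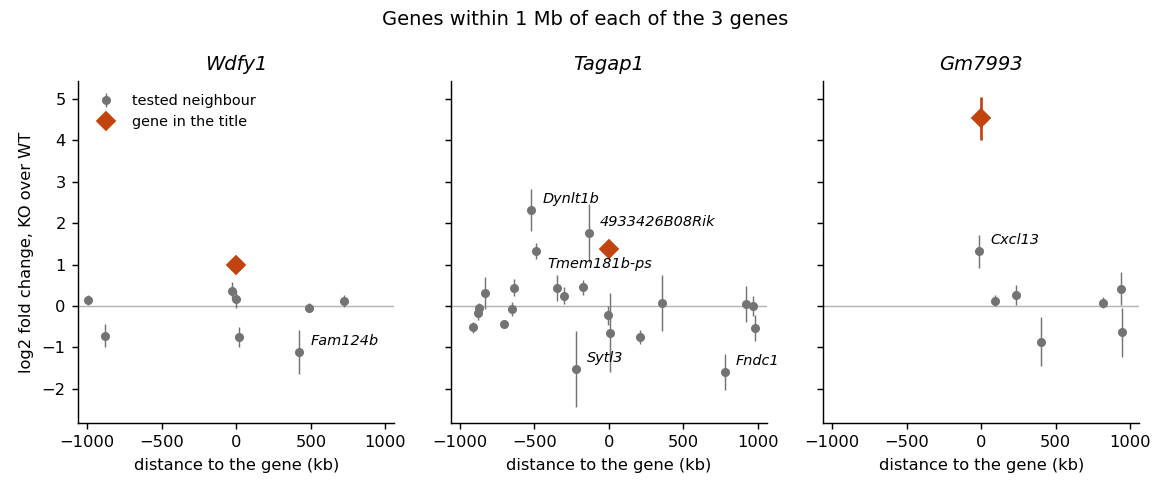
Log2 fold change of KO over WT, with its standard error, of each tested gene within 1 Mb against its distance in kb, for Wdfy1, Tagap1 and Gm7993 (orange diamonds at 0). Neighbours past 1 in either direction are labelled. They are Dynlt1b (2.32), 4933426B08Rik (1.76), Tmem181b-ps (1.32), Sytl3 (-1.53) and Fndc1 (-1.60) around Tagap1, Cxcl13 (1.32) around Gm7993 and Fam124b (-1.11) around Wdfy1, and none passed in edgeR.

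The pathways that the genes belong to were read from gene lists. Of 22 genes of TLR3 and TLR4 signalling, 0 passed in edgeR, 0 in DESeq2 and 0 without WT replicate 1, with 1 at an unadjusted p under 0.05. Over all genes the shares were 0% higher and 0.0127% lower in edgeR, 1.13% higher and 4.39% lower in DESeq2, 2.33% higher and 5.97% lower without WT replicate 1, and 15.3% at an unadjusted p under 0.05. The median log2 fold change of the 22 genes was 0.14, against 0.01 over all genes, and 16 were positive and 6 negative. Traf3, a ubiquitin ligase of the TRIF arm, was at 73.7 ± 1.87 CPM in KO pools and 63.2 ± 3.52 CPM in WT pools (log2 fold change 0.22 ± 0.09 SE, adjusted p = 0.321 in edgeR). Ly96, the MD-2 partner of TLR4, had 0.48 (adjusted p = 0.330 in edgeR), Ticam2, the bridge from TLR4 to TRIF, 0.35 (adjusted p = 0.363) and the chemokine Ccl5 0.40 (adjusted p = 0.369). The Ticam2 level of WT replicate 1, 35.9 CPM, lay just under that of the KO pools, at 36.4 to 37.4 CPM.

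Of 29 other FYVE domain genes, 0 passed in edgeR and 7 had an unadjusted p under 0.05 (15.3% over all genes), with a median log2 fold change of 0.07. DESeq2 called 2 lower and 0 higher, against 4.39% and 1.13% of all genes. None of the 3 genes that share the Wdfy name passed. Wdfy2 was at 107 ± 5.90 CPM in KO pools and 87.4 ± 12.4 CPM in WT pools (log2 fold change 0.28 ± 0.13 SE, adjusted p = 0.338 in edgeR), Wdfy3 had -0.14 (adjusted p = 0.744) and Wdfy4 had 0.21 (adjusted p = 0.591). Zfyve9, which anchors SMAD proteins at endosomes, was at 22.4 ± 1.14 CPM in KO pools and 35.5 ± 3.69 CPM in WT pools (log2 fold change -0.66 ± 0.12 SE, adjusted p = 0.158 in edgeR). Fgd5, a Cdc42 exchange factor of endothelial cells, had -1.02 (SE 0.22, adjusted p = 0.180), Fgd6 had 0.36 (adjusted p = 0.222) and Fyco1, which links autophagosomes to kinesin, -0.41 (adjusted p = 0.223). Without WT replicate 1, edgeR called 1 of these genes higher and 2 lower, Zfyve9 (adjusted p = 0.0191) and Fgd5 (adjusted p = 0.0214), against 2.33% higher and 5.97% lower over all genes.

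A list of 10 genes known to carry variants between C57BL/6 substrains was read for its RNA levels. Levels do not give alleles, and a variant need not change the level. These values therefore cannot tell whether the inherited backgrounds of the groups differ. Of the 6 tested, 0 passed in edgeR and 2 had an unadjusted p under 0.05 (15.3% over all genes). Ide, an insulin-degrading protease, was at 39.9 ± 5.45 CPM in KO pools and 38.0 ± 4.54 CPM in WT pools (log2 fold change 0.07 ± 0.14 SE, adjusted p = 0.854 in edgeR). Cyfip2 had -0.06 (adjusted p = 0.942), Dock2 0.31 (adjusted p = 0.451) and Nlrp12 0.49 (adjusted p = 0.791). Mmrn1, a gene of platelets and endothelium, was at 4.41 ± 0.538 CPM in KO pools and 9.23 ± 1.90 CPM in WT pools (log2 fold change -1.06 ± 0.22 SE, adjusted p = 0.173 in edgeR), and DESeq2 gave an adjusted p of 0.00289 (0.00289 to 0.571 over the other settings, and 0.0182 in edgeR without WT replicate 1).

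The best-known marker of the C57BL/6J line gave no reading. Nnt, the mitochondrial transhydrogenase, was counted 6, 14 and 10 times in KO replicates 1 to 3 and 13, 4 and 3 times in WT replicates 1 to 3. The annotation holds overlapping genes of that name, and reads that overlap several genes were assigned to none. Entpd4, which has an identical copy, was at 0 reads in every pool, as was Gabra2, and Crb1 had 0 to 2 reads. These tables hold no allele or genotype calls, so the origin of the chromosomes around Wdfy1, Tagap1 and Gm7993 was not analysed here.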

How the data were processed

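RNA of 6 libraries, 3 KO and 3 WT pools, was measured by sequencing. The authors deposited raw read counts for each Ensembl identifier. The submitters' processing notes list STAR, HTSeq, DESeq2 and the build GRCm38, and give neither versions nor a strand setting. Reads outside genes (5.90% to 8.62%), overlapping several genes (1.49% to 1.72%) or aligned to several places (7.58% to 8.67%) stood apart and were left out. Symbols were found for 55141 of 55487 identifiers, and positions are from GENCODE M21.

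Counts were filtered with filterByExpr (minimum count 10), scaled by TMM and tested with edgeR 4.0.16 (quasi-likelihood F test, KO against WT, Benjamini-Hochberg over 15707 genes, threshold 0.05). The 3 genes were chosen on this contrast and are given without p-values. The other settings were DESeq2 1.42.0, other scalings, no filter, the replicate number as a block and each library left out. Sequences were compared with BLAST 2.17.0 and Biopython 1.88 on GENCODE transcripts, and promoters are from RefSeq. No pool pair differed by less than sampling noise (chi-square per degree of freedom 38.0 or more). The series' design text calls the pools biological replicates.

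The genes and lists were chosen with earlier results of these data known. Named are the 3 genes, their relatives, the nearest neighbours on each side and the neighbour with the smallest p, up to 4 genes per list with the smallest p at a mean CPM of at least 1, such substrain genes, and the 5 genes most like each by Pearson's r. Sequence copies were added after values were seen. One gene list and one further gene are not reported here.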

Additional observations from a re-analysis of the deposited data

How the results depend on the processing

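The log2 fold changes of Wdfy1, Tagap1 and Gm7993 kept their direction in all 33 values under 11 other settings. Of these values, 0 moved by as much as the SD within groups. The genes were picked because their groups do not overlap, so leaving out a library could not reverse a direction. The kept direction is therefore built in by the choice and is no check of the steps. On leaving out 1 library, the log2 fold changes ran from 0.93 to 1.06 for Wdfy1 and from 1.27 to 1.5 for Tagap1. For Gm7993 they ran from 4.12 to 5.16. Counts of calls differed widely between settings. Over all genes edgeR called 0 higher and 2 lower, DESeq2 called 170 and 661, and edgeR without its expression filter 139 and 643. Leaving out 1 library gave 0 to 376 higher and 1 to 962 lower, with the highest counts without WT replicate 1. The WT group then held no male pool, while the male KO replicate 1 stayed in. Of the neighbours within 1 Mb, DESeq2 and edgeR without its filter each called 3 higher and 3 lower, and leaving out 1 library gave 0 to 4 and 0 to 5. Of the 4 pathway and family lists together, DESeq2 called 9 lower and edgeR without its filter 10, and leaving out 1 library gave 0 to 4 higher and 0 to 12 lower. The cause of these differences was not tested. In edgeR a block on replicate number called 2 genes higher and 1 lower. Deviations of same-numbered pools correlated at 0.0968, -0.160 and 0.00601, and the block changed no count of neighbours or lists. Replicate 1 was in both groups the male pool by its markers, at Y-linked sums of 234 CPM in KO and 240 CPM in WT. Whether the numbers pair the pools is therefore not settled by these correlations. Other scalings moved the median of all genes by at most 0.013. Gm7993 is limited by depth in the WT pools, where 1 read is worth 0.0369 to 0.0562 CPM.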

Other observations

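The genes whose level over the 6 pools was most like each of the 3 were mostly genes with a smaller step. For Wdfy1 these were Cops4 (Pearson's r 0.994), Anp32a (0.993), Bak1 (0.992), Gm21188 (0.991) and Iglv1 (0.991). Cops4, a subunit of the COP9 signalosome, was at 40.9 CPM in KO pools and 36.2 CPM in WT pools on average, a 1.13-fold ratio beside 1.97 for Wdfy1. For Tagap1 they were Nub1 (0.992), Thyn1 (0.987), Igkv4-68 (0.979), Mphosph10 (0.979) and Gtf2e2 (0.979), with ratios of 1.13 to 2.42. For Gm7993 they were H2-M2 (0.995), Txndc17 (0.992), Wdfy1 (0.987), Bak1 (0.986) and Cfap43 (0.986). H2-M2, an MHC class I gene on chromosome 17, had a 6.14-fold ratio. These values describe 6 pools in 2 groups.

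The separation of KO from WT pools was at least as wide as that of Tagap1 for 23 genes in the upward direction. Of them 11 were immunoglobulin genes, 3 belonged to the Serpina3 family of protease inhibitors and 3 were pseudogenes by annotation, the Odc1 copies Gm7993 and Gm9260 and the Serpina3 pseudogene Serpina3h. Dynlt1b, in the duplicated block near Tagap1, was also among them. Many of these families have close copies, for which reads are assigned with less certainty. These genes were chosen after their values were seen.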
